A study of Mus musculus with 16 samples.

Results

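The 10 genes described here encode the core of the MHC class I presentation machinery of the mouse: the heavy chains H2-K1 and H2-D1, the light chain B2m, the peptide transporter subunits Tap1 and Tap2, the loading factors Tapbp and Tapbpl, the transactivator Nlrc5, the trimming peptidase Erap1 and the chaperone Calr. They were chosen by symbol for their place in the pathway, not by a measured value. All 10 were found among the 23356 genes of the expression table, and each had a usable value of at least 1 FPKM in every condition.

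RNA-seq was performed on bone marrow-derived dendritic cells (BMDCs), which are bone marrow cells grown here for 6 days with GM-CSF and IL-4. They came from C57BL/6 wild-type (WT) mice and from Tmem173-/-, Irf1-/- and Irf3/7-/- mice of the same strain background. Cells of each genotype were left untreated or were given 25 μg/ml c-di-GMP, a bacterial cyclic dinucleotide, for 18 h, which makes 8 conditions of 2 samples each. Tmem173 encodes STING, the sensor that binds c-di-GMP, and IRF1, IRF3 and IRF7 are interferon regulatory factors. The knockouts were separate mouse lines from several sources, so that genotype and line cannot be told apart. The question was which part of the response to c-di-GMP needs STING, IRF1 or the IRF3 and IRF7 pair.

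Each gene has 1 FPKM value per condition, that is, a count of fragments scaled to transcript length and to the number of mapped fragments, pooled by the authors over the samples of that condition, with a lower and an upper bound that are called the interval below. There are no values per sample, so no SD, test or p-value is given, and depth per sample is unknown. For the members, the interval's width divided by 2 was 22.3% to 32.8% of the FPKM, with a median of 25.0%. The intervals of B2m were not symmetric and reached further below the value than above it. A gene was called higher or lower where the difference in log2(FPKM + 0.1) was above 1 in size, the intervals did not overlap, at least 1 FPKM was reached in either condition and both values had passed the authors' status check. A call therefore describes these pooled values and is not a significance test.

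The knocked-out genes were read first. Tmem173 stood at 8.97 FPKM untreated and 7.49 treated in Tmem173-/- cells, against 77.0 to 118 in the other 6 conditions. Irf1 in Irf1-/- cells was 25.9 untreated and 116 treated, against 149 and 245 in WT. Irf7 in Irf3/7-/- cells was 1.07 untreated and 4.97 treated, against 15.2 and 687 in WT, but Irf3 there was 7.74 untreated and 20.2 treated, against 19.9 and 15.8 in WT. These are levels of whole genes and do not show which exons were read, so transcripts of a disrupted gene are counted too. For the dendritic cell list, the 8 markers with a usable value in every condition summed to between 4618 and 7534 FPKM, and the ninth, Ccl22, had no usable value in 3 of the treated conditions. Cd74 made up most of each of these sums (3336 to 4983 FPKM), so they say little about the other markers. The macrophage list (7 of 8 genes in the table) summed to 169 to 277 FPKM outside Tmem173-/- cells and to 474 and 451 within them. The neutrophil list (4 of 5) summed to 1357 to 3887 outside Tmem173-/- cells, and to 18747 untreated and 13534 treated within them. S100a8 and S100a9 made up nearly all of each sum. Untreated, Mpo was 3.70 FPKM in WT, 24.7 in Irf1-/-, 16.5 in Irf3/7-/- and 19.1 in Tmem173-/- cells. Elane was 2.45, 16.4, 8.61 and 40.8 in the same order, so both were lowest in WT cells, unlike the sum. B cell markers summed to at most 10.3 FPKM, and basophil and mast cell markers to between 33.8 and 140 FPKM.

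MHC class I molecules carry peptides cut from proteins inside the cell to the surface, where CD8+ T cells read them. Peptides made by the proteasome are pumped into the endoplasmic reticulum by the TAP transporter, trimmed by ERAP1, and fitted into a heavy chain and beta-2 microglobulin with the help of tapasin, TAPBPR and calreticulin. Transcription of most of these genes is raised by interferons, with IRF1 and NLRC5 among the factors involved, and dendritic cells use the pathway to prime CD8+ T cells.

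The upstream sequences of the members are shown first, because the motifs through which interferon and NF-kappa B factors are known to act lie in a short stretch of DNA before the start of some of these genes. RefSeq windows of 300 bases (most of them before the start, GRCm38.p6) were at hand for H2-K1, H2-D1, B2m, Tap1, Tapbp, Erap1 and Calr, and not for Tap2, Tapbpl and Nlrc5. The stretches below run 5′ to 3′ on the strand of the gene, positions are counted from the start with -1 as the base before it, and capitals mark the motifs. In H2-K1 and H2-D1 these are GGGATTCCC, a kappa B motif, and the reverse complement of GAAGTGAAA, an interferon-stimulated response element. In B2m they are GAAANNGAA, the core of that element in another spacing, and GGANNTTCC, a kappa B core read on the reverse strand. In Erap1 they are overlapping copies of GAAANNGAA on the reverse strand.
H2-K1, -110 to -82, chr17:34000429-34000457, minus strand: GGGATTCCCcatctccacagTTTCACTTC
H2-D1, -170 to -142, chr17:35262924-35262952, plus strand: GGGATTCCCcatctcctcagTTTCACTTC
B2m, -139 to -111, chr2:122147548-122147576, plus strand: GAAACTGAAaatgGGAAAGTCCctttgta
Erap1, -24 to 6, chr13:74639829-74639858, plus strand: ccctgccggtccaccTTCACTTTCACTTTC

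The H2-K1 and H2-D1 stretches were identical at 28 of 29 bases. The longer upstream sequence of the pair that could be aligned, these stretches included, was identical at 127 of 140 bases (90.7%). The stretches of H2-D1 and Erap1 fall inside the first exon of another transcript of the same gene in GENCODE M21, while the other stretches lie upstream of every annotated exon of their gene. Around the same motifs the sequence before the start of H2-K1 and of B2m, the heavy and the light chain of one molecule, was as follows.
H2-K1, -200 to -1, chr17:34000348-34000547, minus strand: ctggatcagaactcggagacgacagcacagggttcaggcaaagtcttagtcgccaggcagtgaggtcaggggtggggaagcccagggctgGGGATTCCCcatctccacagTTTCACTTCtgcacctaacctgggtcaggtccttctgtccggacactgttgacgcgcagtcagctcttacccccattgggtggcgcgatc
B2m, -200 to -2, chr2:122147487-122147685, plus strand: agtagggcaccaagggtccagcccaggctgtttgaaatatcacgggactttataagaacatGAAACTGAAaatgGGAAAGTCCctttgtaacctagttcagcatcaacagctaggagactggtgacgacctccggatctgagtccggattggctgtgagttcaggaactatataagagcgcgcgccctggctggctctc

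Both strands of all 32851 RefSeq windows of the same length were searched for comparison. GAAGTGAAA was present in 0.505% of them and GGGATTCCC in 0.353%, and among the members with a window only H2-K1 and H2-D1 held either. Both strings were added after the windows had been read, and the upstream sequences of this pair are alike. Their presence there is therefore no test against the share of all windows. GAAANNGAA was present in 8.56% of the windows and, among the members, in B2m and Erap1. GGANNTTCC was present in 4.26% and, among the members, in B2m. CCAAT, the core of the Y box, was present in 37.4% of the windows and in those of H2-K1, H2-D1, B2m, Tap1, Tapbp and Calr. TTCNNNGAA, a gamma-activated site (8.3% of windows), and TGACGT, a CRE-like form of the X2 box core (7.51%), were in no member's window. The shorter string TGACG stands in the upstream sequence of H2-K1, H2-D1, B2m and Tap1. It was not counted over all windows, so the absence of TGACGT does not show that these genes lack an X2 box. A match is a string of letters and not a measured binding site, and a motif that is missing from the window may lie elsewhere.

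**Figure D1:**
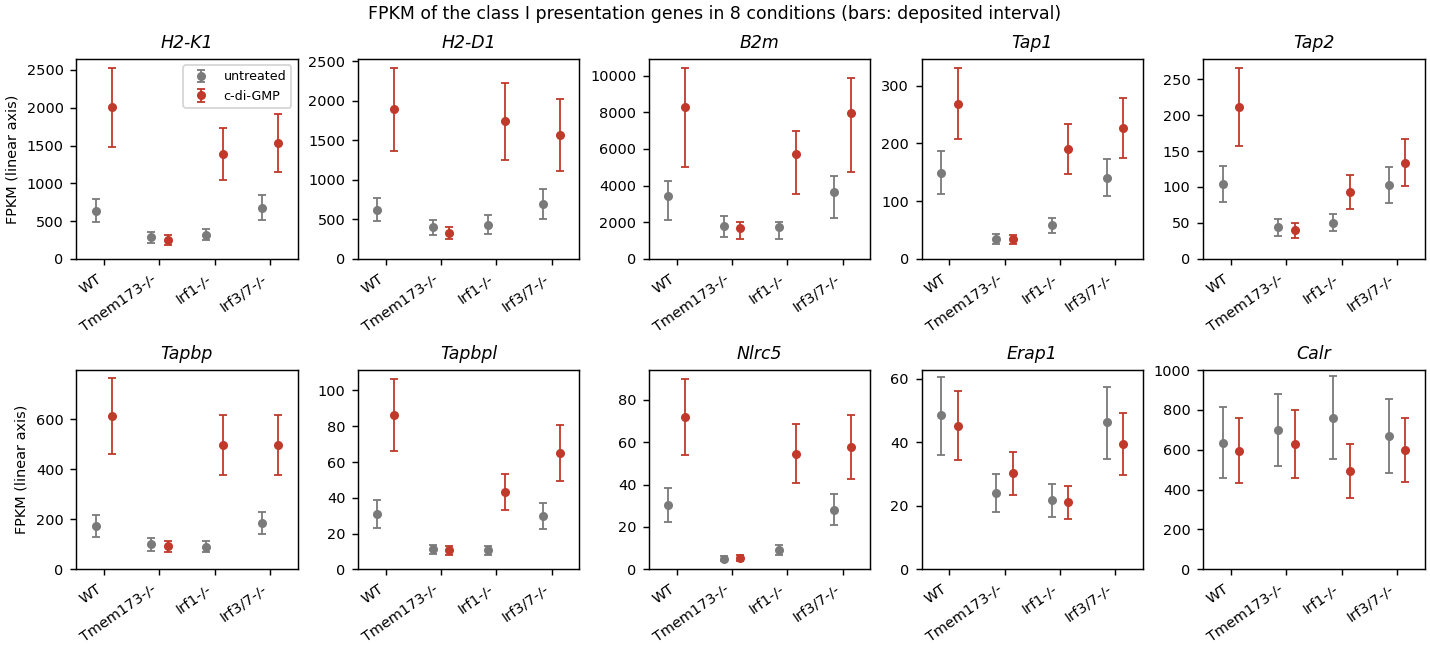
FPKM of each of the 10 genes (vertical axes, linear, each starting at 0) in untreated (grey) and c-di-GMP-treated (red) cells of the 4 genotypes. Points are the authors' pooled values and bars their intervals. In 8 panels the red point stands above the grey point in WT, Irf1-/- and Irf3/7-/- cells and beside it in Tmem173-/- cells, while Erap1 and Calr show no such step.

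The classical heavy chains come first. H2-K1 (chr17:33996017-34000347, minus strand, GRCm38) encodes H-2K, and H2-D1 (chr17:35262730-35267499, plus strand) encodes H-2D. H2-K1 went from 638 FPKM (interval 488 to 788) to 2003 (1479 to 2527) with c-di-GMP in WT cells, from 679 to 1530 in Irf3/7-/- cells and from 321 to 1384 in Irf1-/- cells. In Tmem173-/- cells it was 284 untreated and 249 treated. The 3 treated STING-competent conditions thus overlapped with each other at the top, untreated WT and Irf3/7-/- cells overlapped in the middle, and untreated Irf1-/- cells overlapped with both Tmem173-/- conditions at the bottom, with intervals apart between these tiers. Since these are bulk cultures, fewer cells that express a gene and less RNA per cell cannot be told apart here or in any value below.

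H2-D1 went from 623 FPKM (474 to 772) to 1893 (1367 to 2421) in WT cells, from 695 to 1568 in Irf3/7-/- cells and from 434 to 1739 in Irf1-/- cells. In Tmem173-/- cells it was 401 untreated and 327 treated. Its untreated values ran into each other without a gap, from 695 down to 401 FPKM, so that the middle and bottom tiers seen for H2-K1 were not separate for H2-D1. The ratio of H2-K1 to H2-D1 showed the same unequal shift: 1.02 and 1.06 in untreated and treated WT cells and 0.976 and 0.976 in Irf3/7-/- cells, but 0.708 and 0.761 in Tmem173-/- cells and 0.740 and 0.796 in Irf1-/- cells. The pair share sequence: 18.1% of the 35-base words in the longest H2-K1 transcript and 20.2% of those in H2-D1 were also found in another of the 52 class I and related transcripts searched, and a second table entry, H2-L, lies on the locus of H2-D1. Reads may have been split among these genes in a way that the sources used here do not describe.

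B2m (chr2:122147686-122153083, plus strand), the light chain of every class I molecule, had the highest level of the 10 genes. It was 3455 FPKM (2122 to 4266) in untreated and 8294 (4998 to 10438) in treated WT cells. It was 3630 and 7938 in Irf3/7-/- cells, 1720 and 5719 in Irf1-/- cells, and 1817 and 1668 in Tmem173-/- cells. Neighbouring values overlapped all along this order, because the intervals of B2m were wide, but each treated value lay apart from the untreated value of its own genotype except in Tmem173-/- cells. By level, B2m ranked between 8 and 10 among genes with a usable value in both conditions of WT cells, and 43 and 31 in untreated and treated Tmem173-/- cells. Genes without a usable value, such as Ccl22 in treated WT cells, are left out of these ranks. Its FPKM was 1.83 to 2.90 times the sum of H2-K1 and H2-D1 in every condition, lowest in treated Irf1-/- cells and highest in treated Tmem173-/- cells. The table's B2m locus also spans Patl2 and Trim69, which have entries of their own.

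The TAP transporter is made of TAP1 and TAP2, whose genes lie near each other in the class II region. Tap1 (chr17:34187553-34197225, plus strand) went from 149 FPKM (112 to 186) to 269 (207 to 331) in WT cells and from 141 to 226 in Irf3/7-/- cells. It went from 57.7 (44.6 to 70.7) to 190 (146 to 233) in Irf1-/- cells, and was 34.6 and 33.5 in Tmem173-/- cells. Untreated Irf1-/- cells lay apart from both neighbours in this order, below untreated WT and Irf3/7-/- cells and above Tmem173-/- cells. The start of Tap1 is 226 bases from the start of Psmb9, an immunoproteasome subunit that is read in the other direction, and Psmb9 was 240 and 380 FPKM in WT, 219 and 278 in Irf3/7-/-, 86.8 and 275 in Irf1-/- and 71.6 and 61.9 in Tmem173-/- cells.

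Tap2 (chr17:34203527-34216321, plus strand) went from 104 FPKM (79.0 to 129) to 212 (157 to 266) in WT cells and from 50.3 (38.1 to 62.6) to 92.8 (69.5 to 116) in Irf1-/- cells. It was 103 and 134 in Irf3/7-/- cells with overlapping intervals, and 43.9 and 39.8 in Tmem173-/- cells. Treated WT cells stood highest, overlapping with treated Irf3/7-/- cells, and treated Irf1-/- cells did not rise past untreated WT cells. The ratio of Tap1 to Tap2 was 1.43 and 1.27 in untreated and treated WT cells, 1.37 and 1.69 in Irf3/7-/- cells, 1.15 and 2.04 in Irf1-/- cells and 0.786 and 0.840 in Tmem173-/- cells. Both subunits are needed for transport, and their levels per length came closest to each other in untreated Irf1-/- and treated Tmem173-/- cells.

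Tapasin, encoded by Tapbp (chr17:33915899-33929292, plus strand), bridges the heavy chain to TAP. It went from 172 FPKM (127 to 218) to 612 (461 to 763) in WT cells, from 186 to 497 in Irf3/7-/- cells and from 90.6 to 497 in Irf1-/- cells. In Tmem173-/- cells it was 99.6 untreated and 92.1 treated. The 3 treated STING-competent conditions overlapped, and in WT cells its rise of 3.55-fold was the largest of the 10 genes. The rise in Irf1-/- cells was 5.48-fold, from a level about that of Tmem173-/- cells to the level of treated Irf3/7-/- cells.

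Tapbpl (chr6:125223933-125231860, minus strand) encodes TAPBPR, a tapasin relative that edits peptides outside the TAP complex. It was expressed at a lower level: 31.0 FPKM (23.4 to 38.6) and 86.5 (66.4 to 107) in WT, 29.8 and 65.0 in Irf3/7-/-, 10.5 (7.88 to 13.2) and 43.1 (33.2 to 53.1) in Irf1-/-, and 11.1 and 10.6 in Tmem173-/- cells. Treated Irf1-/- cells lay below treated WT cells with intervals apart, and untreated Irf1-/- cells were level with Tmem173-/- cells. The table's Tapbpl locus also overlaps Cd27 and E130112N10Rik, which have entries of their own.

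Nlrc5 (chr8:94434356-94527272, plus strand), the class I transactivator that acts on the promoters of class I genes, varied most among the 10 genes. It was 30.3 FPKM (22.5 to 38.2) in untreated and 71.8 (53.8 to 89.9) in treated WT cells, and 28.0 and 57.8 in Irf3/7-/- cells. It went from 9.33 (7.00 to 11.7) to 54.6 (40.6 to 68.7) in Irf1-/- cells and was 5.02 and 5.53 in Tmem173-/- cells. The highest of the 8 values was 14.3 times the lowest, against 8.21 for Tapbpl, 8.05 for H2-K1, 8.03 for Tap1, 6.75 for Tapbp, 5.79 for H2-D1, 5.31 for Tap2 and 4.97 for B2m. Like Tap1, untreated Irf1-/- cells formed a tier of their own for Nlrc5, apart from WT above and from Tmem173-/- below.

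The remaining members had another pattern. Erap1 (chr13:74639568-74693201, plus strand), the peptidase that trims peptides in the endoplasmic reticulum, was 48.4 FPKM (36.1 to 60.6) and 45.1 (34.3 to 56.0) in WT cells and 46.3 and 39.4 in Irf3/7-/- cells. It was 24.1 and 30.2 in Tmem173-/- cells and 21.7 (16.4 to 26.9) and 21.2 (16.0 to 26.3) in Irf1-/- cells. Treatment moved it in no genotype beyond overlapping intervals, and Irf1-/- cells were lowest in both states, with intervals that overlapped those of Tmem173-/- cells. Calr (chr8:84841850-84846934, minus strand), the chaperone calreticulin, which serves many glycoproteins, was 635 and 596 in WT, 667 and 597 in Irf3/7-/-, 699 and 627 in Tmem173-/- and 760 (553 to 971) and 494 (358 to 631) in Irf1-/- cells. Neighbouring values of Calr overlapped all along the order, and its highest value was 1.54 times its lowest, against 2.29 for Erap1.

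The first comparison asks what c-di-GMP did in cells that have STING. In WT cells 7 of the 10 genes were called higher and none lower, where 10.5% of the 11201 genes tested were called higher and 9.96% lower. The largest changes were those of Tapbp (log2 difference 1.83), H2-K1 (1.65), H2-D1 (1.60) and Tapbpl (1.48), followed by B2m (1.26), Nlrc5 (1.24) and Tap2 (1.03). Tap1 missed the call at 0.85 although its intervals were apart, and Erap1 (-0.10) and Calr (-0.09) had overlapping intervals. The median over the members was 1.25, beside 0.00 over all genes tested. Together the 10 genes went from 0.988% to 2.01% of the summed FPKM of the table, of which B2m made up 0.580% and 1.18%; these sums lack genes without a usable value.

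In Tmem173-/- cells none of the 10 genes was called in either direction, which is near the 0.0552% of all genes tested that were called. The log2 differences ran from -0.29 for H2-D1 to 0.32 for Erap1, every pair of intervals overlapped, and the members took 0.481% of the summed FPKM in both states. The same treatment that was followed by higher H2-K1, B2m and Tapbp in WT cells was thus not followed by a detectable change of these genes in cells that lack STING.

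In Irf1-/- cells 7 of the 10 genes were called higher, where 9.67% of all genes tested were. The log2 differences were 2.54 for Nlrc5, 2.45 for Tapbp, 2.11 for H2-K1, 2.02 for Tapbpl, 1.73 for B2m and 1.72 for Tap1, and H2-D1 rose 4.01-fold. Tap2 was not called at 0.88, with intervals apart, and Calr stood at -0.62 with overlapping intervals. The median over the members was 1.87, above that in WT cells, and their share of summed FPKM went from 0.556% to 1.52%. The difference was larger than in WT cells for 7 of the 8 genes with a positive difference in both genotypes, by 1.29 on the log2 scale for Nlrc5, 0.87 for Tap1 and 0.40 to 0.63 for the rest, and smaller for Tap2 (-0.14); this contrast between genotypes was not tested, as there are no values per sample. The same 8 genes started lower in Irf1-/- than in WT cells, and none of the 10 ended above treated WT cells.

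In Irf3/7-/- cells 6 of the 10 genes were called higher, where 10.2% of all genes tested were. The log2 differences were 1.41 for Tapbp, 1.17 for H2-K1, 1.17 for H2-D1, 1.13 for B2m, 1.12 for Tapbpl and 1.04 for Nlrc5. Tap1 (0.69, intervals apart) and Tap2 (0.38, intervals overlapping) were not called. The median was 1.08, and each of the 10 differences lay below that in WT cells, by between 0.07 for Calr and 0.65 for Tap2, which again was not tested. The share of summed FPKM went from 1.03% to 1.90%. The 4 treatment comparisons share no samples with each other, but those against WT below share the WT values.

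**Figure D2:**
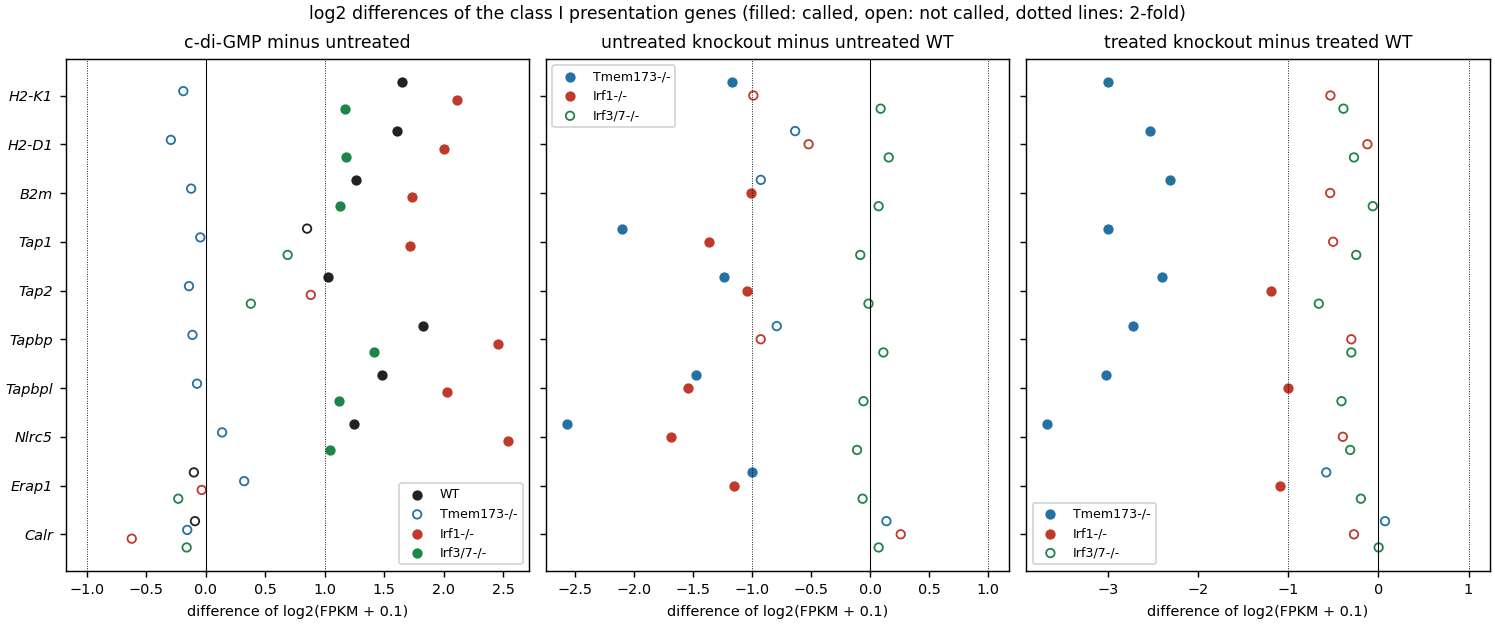
Differences of log2(FPKM + 0.1) for the 10 genes (rows) in the treatment comparison of each genotype (left), in untreated knockouts against untreated WT (middle) and in treated knockouts against treated WT (right). Filled points were called and open points were not; dotted lines mark a 2-fold difference. The left panel shows Tmem173-/- near 0 throughout, the middle panel shows Tmem173-/- and Irf1-/- both to the left of Irf3/7-/- for every gene except Calr, and the right panel shows Tmem173-/- at -2.31 or below for every gene except Erap1 and Calr.

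The second comparison sets the treated knockouts against treated WT cells. In treated Tmem173-/- cells 8 of the 10 genes were called lower, all except Erap1 (log2 difference -0.58) and Calr (0.07), where 13.5% of all genes tested were called lower. Nlrc5 was at 7.70% of the WT level (-3.68), Tapbpl at 12.2% (-3.02), H2-K1 at 12.4% (-3.01), Tap1 at 12.4% (-3.00), Tapbp at 15.1% (-2.73), H2-D1 at 17.3% (-2.53), Tap2 at 18.8% (-2.41) and B2m at 20.1% (-2.31). The median log2 difference of the 10 genes was -2.63.

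In treated Irf1-/- cells 3 of the 10 genes were called lower, where 4.91% of all genes tested were: Tap2 at 43.8% of WT (-1.19), Erap1 at 46.9% (-1.09) and Tapbpl at 49.9%, just past the limit. All 10 differences were negative, with a median of -0.52, and the other 7 genes had overlapping intervals with WT. H2-D1 was nearest to WT at 91.9%, then Calr at 82.8%, Tapbp at 81.1% and Nlrc5 at 76.0%. Tap2 and Tapbpl, unlike the other responders, were therefore called lower than WT in both the untreated and the treated state of Irf1-/- cells, as was Erap1, which did not respond to treatment.

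In treated Irf3/7-/- cells none of the 10 genes was called, where 7.3% of all genes tested were called in either direction. For 10 genes, none called is near this share. The lowest was Tap2 at 63.2% of WT (-0.66), B2m stood at 95.7% (-0.06), Calr at 100.1% (0.00), and the median was -0.29. Treated Irf1-/- and treated Irf3/7-/- cells, set against each other, also gave no call among the 10 genes, where 9.84% of all genes tested were called. This too is near the share of all genes. Erap1 was the only member with intervals apart in that pair, lower in Irf1-/- cells (-0.89), while Tapbp was equal (0.00) and H2-D1 slightly higher in Irf1-/- cells (0.15).

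The third comparison concerns cells that received no c-di-GMP. Untreated Tmem173-/- cells had 6 of the 10 genes called lower than untreated WT, where 5.95% of all genes tested were. Nlrc5 was at 16.6% of WT (-2.57), Tap1 at 23.2% (-2.11), Tapbpl at 35.8% (-1.47), Tap2 at 42.3% (-1.24), H2-K1 at 44.5% (-1.17) and Erap1 at 49.8%, just past the limit. Tapbp had its intervals apart but missed the limit (-0.79), and B2m (-0.93) and H2-D1 (-0.64) had overlapping intervals.

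Untreated Irf1-/- cells had 6 of the 10 genes called lower, where 3.52% of all genes tested were. Nlrc5 was at 30.8% of WT (-1.69), Tapbpl at 34.0% (-1.55), Tap1 at 38.7% (-1.37), Erap1 at 44.8% (-1.16), Tap2 at 48.4% (-1.04) and B2m at 49.8% (-1.01). H2-K1 (-0.99) and Tapbp (-0.93) had intervals apart and stood just inside the limit. Untreated Irf3/7-/- cells had no member called, which is near the 2.04% of all genes tested that were called in either direction. The log2 differences of the members ran only from -0.11 for Nlrc5 to 0.16 for H2-D1. Tap1, Tap2, Tapbpl, Nlrc5 and Erap1 were thus called lower in both untreated Tmem173-/- and untreated Irf1-/- cells, while H2-D1 overlapped with WT in both and Calr was nominally higher in both.

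Markers of other cells differed between the same untreated conditions. The T and NK cell list of 9 genes (Cd3e, Cd3d, Cd3g, Cd2, Ncr1, Klrb1c, Nkg7, Gzma and Prf1) summed to 445 FPKM in untreated WT and 457 in untreated Irf3/7-/- cells, with 8 of 9 genes at 1 FPKM or more in each. It summed to 3.24 FPKM in untreated Tmem173-/- cells, with 1 of 9 genes at that level and Ncr1 and Gzma listed at 0, and to 13.5 in untreated Irf1-/- cells, with 3 of 9 genes and Ncr1 listed at 0. After treatment the sum was 396 in WT, 1153 in Irf3/7-/-, 14.5 in Irf1-/- (Ncr1 listed at 0) and 2.75 in Tmem173-/- cells (Gzma listed at 0), with 7, 7, 2 and 1 of 9 genes at 1 FPKM or more. Ifng, the gene of interferon gamma, which T and NK cells make, was 34.6 FPKM in untreated WT, 44.0 in untreated Irf3/7-/-, 1.26 in untreated Irf1-/- and listed at 0 in untreated Tmem173-/- cells. The part of these cells and of Ifng in the untreated levels of Nlrc5, Tap1 and the other members was not tested.

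After treatment Ifng was 299 FPKM in WT, 1155 in Irf3/7-/-, 25.5 in Irf1-/- and listed at 0 in Tmem173-/- cells. Ifnb1, the gene of interferon beta, was 2.93 in WT, 22.6 in Irf3/7-/-, 3.53 in Irf1-/- and 0.0474 in Tmem173-/- cells, and at most 0.0258 in the untreated conditions. Between treated Irf1-/- and treated Irf3/7-/- cells none of the members was called, which for 10 genes is near the 9.84% of all genes tested. Of the 10 differences 9 were negative, from -0.89 for Erap1 to 0.00 for Tapbp, and H2-D1 stood at 0.15. Tapbpl was at -0.59, Tap2 at -0.53 and B2m at -0.47. These conditions differ at once in genotype, Ifng, Ifnb1 and T and NK cell genes. The part of each in the treated levels was not tested. The neutrophil and macrophage sums given above were highest in Tmem173-/- cells, and their part in the levels of the members there was not tested. With treatment the neutrophil sum was lower in all 4 genotypes. It went from 3887 to 1752 FPKM in WT and from 2376 to 1357 in Irf1-/- cells. In Irf3/7-/- cells it went from 2186 to 1367 and in Tmem173-/- cells from 18747 to 13534. The macrophage sum went from 184 to 277 in WT and from 171 to 269 in Irf3/7-/- cells. It went from 184 to 169 in Irf1-/- and from 474 to 451 in Tmem173-/- cells. The part of these changes in the levels of the members was not tested.

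**Figure D3:**
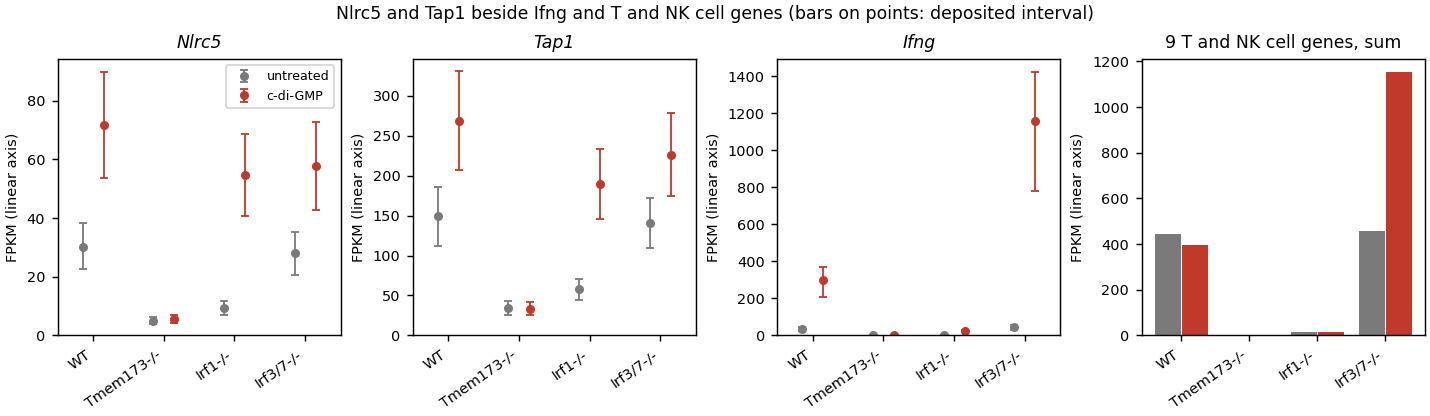
FPKM of Nlrc5, Tap1 and Ifng (points, with the deposited intervals) and the summed FPKM of 9 T and NK cell genes (bars) in untreated (grey) and treated (red) cells, all on linear axes from 0. Untreated, all 4 quantities are higher in WT and Irf3/7-/- cells than in Tmem173-/- and Irf1-/- cells. Treated, Nlrc5 and Tap1 are also high in Irf1-/- cells, where the marker sum is 14.5. Ifng is 25.5 there (1.26 untreated), below treated WT cells (299), with an interval that overlaps that of untreated WT cells (34.6). The part of Ifng and of T and NK cells in the levels of Nlrc5 and Tap1 was not tested.

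The members that share a pattern were then compared across the 8 conditions with every gene that reached 10 FPKM (7381 other genes), by Pearson's r of log2(FPKM + 0.1). These points share cultures, genotypes and the strong step in treated cells, so r is a description. Among the genes most like Tap1 were Nlrc5 (0.996) and H2-Q7 (0.994). Among those most like Nlrc5 were Tap1 (0.996) and Irgm1 (0.996). H2-K1 was most like H2-Q4 (0.994), Parp10 (0.992) and Cxcl10 (0.992). Among the members, H2-K1 went with B2m at 0.992, with Tapbp at 0.988 and with H2-D1 at 0.987, and less with Tap1 (0.960) and Tap2 (0.935). By r with H2-K1, B2m ranked 4, Tapbp 17, H2-D1 20, Tap1 149 and Tap2 351 among the 7381 genes. Many genes outside the list were thus as much like H2-K1 as these members. Tapbp was nearer to H2-D1 (0.993) than to Tap1 (0.911). Erap1 (0.41) and Calr (-0.69) stood apart from H2-K1.

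Other genes of the class I pathway were read from a list of 62, all in the table. In WT cells 15 of the 54 tested were called higher with c-di-GMP, where 10.5% of all genes were, and 2 lower, where 9.96% were, with a median of 0.75. In Irf1-/- cells 23 of 53 were called higher (9.67% of all genes) and 2 lower (7.81%), in Irf3/7-/- cells 12 of 53 higher (10.2%) and 2 lower (7.68%), and in Tmem173-/- cells 0 of 51 (0.0552%). Against treated WT, treated Tmem173-/- cells had 27 of 54 called lower (13.5% of all genes) and 2 higher (12.9%), Uggt1 and Wdfy4. Treated Irf1-/- cells had 6 of 54 lower (4.91%), the Irf1 transcript, Cybb and 4 genes named below, and treated Irf3/7-/- cells 3 of 54 lower, near the 2.69% of all genes. Untreated, against WT, 14 of 52 were called lower (5.95%) and 2 higher (5.04%), H2-M2 and Cybb, in Tmem173-/- cells, 15 of 52 lower in Irf1-/- cells (3.52%) and 1 of 52 higher in Irf3/7-/- cells, near the 1.17% of all genes. Both counts of genes lower in Irf1-/- cells include Irf1, the gene disrupted there.

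Most of the calls belonged to nonclassical and other heavy chains, among which several are near-identical copies of each other, so that the split of reads between them is uncertain. In WT cells 13 of 18 tested were called higher, where 10.5% of all genes tested were, with a median of 1.77. H2-M2 went from 9.92 to 175 FPKM (4.13), H2-Q8 from 38.1 to 196 (2.36) and H2-T22 from 31.8 to 159 (2.31). H2-M2 behaved unlike H2-K1 and H2-D1 in the knockouts: it was 30.5 and 37.8 in Tmem173-/- cells, 26.3 and 76.4 in Irf3/7-/- cells and 11.2 and 217 in Irf1-/- cells, so this gene was called higher than WT in untreated Irf3/7-/- cells and lower in treated ones. The other genes called lower in treated Irf3/7-/- cells were Cd1d1 and Cd1d2, which present lipids: 58.3 and 2.23 FPKM in treated WT against 21.2 and 0.790. Treated Irf1-/- cells had Cd1d1 (19.5) and Cd1d2 (0.487) called lower too, and Mr1 (1.28 against 2.75), which presents vitamin metabolites.

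The immunoproteasome, which cuts peptides suited to class I, and its activator PA28 had 1 of 5 genes called higher in WT cells (10.5% of all genes). This was Psme2, from 498 to 1025 FPKM (1.04). Psme1, Psmb8, Psmb9 and Psmb10 had differences of 0.66 to 0.91. In Irf1-/- cells 4 of 5 were called higher (9.67% of all genes), all except Psmb10 (61.8 to 107 FPKM, 0.80). In Irf3/7-/- cells none was called higher, which for so few genes is near the 10.2% of all genes, with differences of 0.26 to 0.84. All 5 were called lower in treated Tmem173-/- than in treated WT cells (13.5% of all genes). Psmb10 alone was called lower in treated Irf1-/- cells (107 against 239 FPKM, -1.15), where 4.91% of all genes were. None of the 3 constitutive catalytic subunits and none of the 5 loading chaperones beside Calr was called with treatment in any genotype. Of all genes tested, 20.5% were called in either direction in WT, 17.5% in Irf1-/- and 17.9% in Irf3/7-/- cells. For so few genes, none called is near these shares. Among 7 peptidases beside Erap1, Thop1, which destroys peptides in the cytosol, was called lower in WT (12.4 to 5.20 FPKM), Irf1-/- (14.5 to 7.09) and Irf3/7-/- cells (13.8 to 4.57), and Lnpep was called higher in Irf1-/- cells (28.0 to 63.6).

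Of 11 regulators of class I genes none was called higher in WT cells, which for so few genes is near the 10.5% of all genes. In Irf1-/- cells 2 of 11 were called higher (9.67% of all genes), Irf1 among them. Against WT, 3 of 11 were lower in treated Tmem173-/- cells (13.5%), among them Irf1 and Rfx5. Untreated, 2 of 11 were lower in Tmem173-/- (5.95%) and 2 of 11 in Irf1-/- cells (3.52%), Irf1 among them in each. Irf1 is the gene disrupted in Irf1-/- cells, so its calls there are no result about the regulators. Among 5 cross-presentation genes, Cybb, a subunit of the NADPH oxidase, was called higher in WT (80.4 to 233 FPKM), Irf1-/- and Irf3/7-/- cells. Wdfy4, which is needed to cross-present cell-bound antigen, was called lower in the same genotypes, from 49.5 to 4.71 FPKM in WT, from 62.0 to 5.55 in Irf1-/- and from 34.8 to 5.06 in Irf3/7-/- cells, and was 25.4 and 32.4 in Tmem173-/- cells. The fall of Wdfy4 (-3.37 in WT) thus ran opposite to the rises of H2-K1, Tapbp and Nlrc5 in the same cells.

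**Figure D4:**
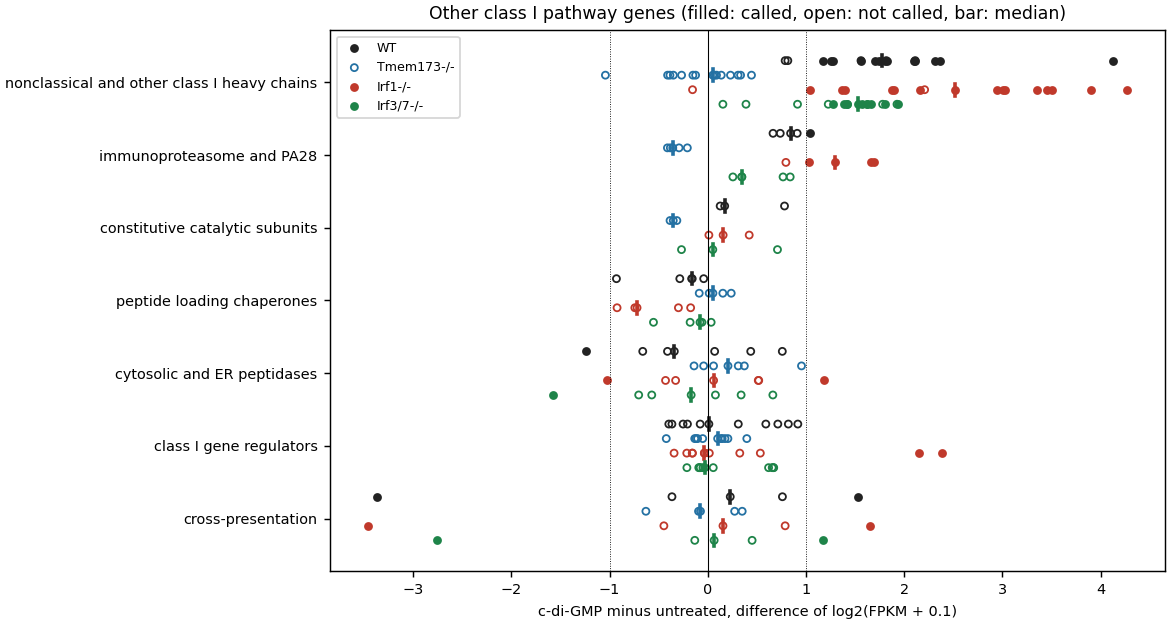
Differences of log2(FPKM + 0.1) between treated and untreated cells (horizontal axis) for the other class I pathway genes that were tested, by role (vertical axis) and genotype (colour). Filled points were called, open points were not, vertical bars are medians and dotted lines mark a 2-fold difference. Heavy chains lie to the right in WT (median 1.77), Irf1-/- (2.52) and Irf3/7-/- cells (1.53), and at 0.05 in Tmem173-/- cells, while chaperones, with medians from -0.72 in Irf1-/- to 0.05 in Tmem173-/- cells, and constitutive subunits hold open points only.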

How the data were processed

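RNA was extracted from BMDCs, and stranded mRNA libraries were sequenced by the authors as short paired-end reads. The authors deposited FPKM values with lower and upper bounds, 1 pooled value per gene and condition, from Cuffdiff; the submitters' processing notes name version 1.06 and the genome build mm9. The loci in the table follow GRCm38, since 21454 of 21681 genes overlapped the GENCODE M21 gene of the same name. The aligner, the annotation and the strand setting of Cuffdiff are not given in the sources used here. For its Seqmonk analysis the study names an opposite-strand setting; those values were not used. Another 3 value columns belong to no sample of this series and were not used. The columns of Tmem173-/- cells whose name ends in GDP were read as treated with c-di-GMP; the labels give the dose as 25 μg/ml, while legends of the study give a higher one.

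Values were compared as differences of log2(FPKM + 0.1), which understate changes of low genes, with a limit of 1, intervals apart, a minimum of 1 FPKM and status OK, in 11 comparisons. All genes were compared and the members were read from the result. Column sums were 595544 to 710814 FPKM. No steps of whole reads could be found: of 528 genes under 0.1 FPKM at most 4.36% fell in any bin of 0.05 log2 units, so depth stays unknown. The comparison code was tested on simulated data. The code ran in Python 3.11.15 with pandas 2.3.3 and numpy 2.4.6, and figures were drawn with matplotlib 3.10.9.

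The members, the pathway list, the marker lists and the tests were chosen with earlier results of these data known. Pathway genes were named where they were among the 3 largest called changes of their role in WT cells or belonged to a count of 5 or fewer, except for a gene that is not reported here; the values of Psmb9, Psmb10 and the other genes named beside them were chosen after they were seen. The motifs GAAGTGAAA and GGGATTCCC were added after the windows had been read. Alternatives covered the pseudocount, the minimum, the fold limit, median centring and the use of intervals.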

Additional observations from a re-analysis of the deposited data

How the results depend on the processing

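No paired analysis was possible because the table holds 1 pooled value per condition, and for the same reason no replicate could be left out. The counts of members called depended on the fold limit. With a fold change above 4 they were 0 for the treatment of WT and of Irf3/7-/- cells, 0 for treated Irf1-/- against treated WT, 2 for untreated Tmem173-/- against WT (Tap1 and Nlrc5) and 0 for untreated Irf1-/- against WT; with one above 1.5 treated Irf1-/- against treated Irf3/7-/- gave 1 (Erap1). Other counts stayed within 1.5 times. Of 110 values (10 genes in 11 comparisons), 28 lost their call at the limit of 4 and 7 gained one at 1.5. Median centring lost 2, B2m (-0.97, untreated Irf1-/- against WT) and Erap1 (-0.998, untreated Tmem173-/- against WT), and a pseudocount of 1 FPKM lost 2, that of Erap1 (-0.98) and that of Tapbpl in treated Irf1-/- against WT cells (-0.99). A pseudocount of 0.01, no minimum, a minimum of 5 FPKM and the fold alone changed no call of the 110. No called value changed sign; Tap2 in untreated Irf3/7-/- against WT, not called, went from -0.014 to 0.0058 with median centring. With unknown depth and no values per sample, the spread between samples cannot be given.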
